A study of Mus musculus with 30 samples.

Results

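The replication-dependent histone genes of the mouse were followed across 30 RNA libraries from naive embryonic stem cells. They were chosen by name alone, as every gene of the table whose symbol begins with Hist1h, Hist2h, Hist3h or Hist4h, which gave 44 of 12428 genes. They comprised 5 genes of the linker histone H1, 13 of H2A, 10 of H2B, 8 of H3 and 8 of H4. In the GENCODE annotation of mouse build GRCm38 (mm10), 37 of them lay on chromosome 13, 5 on chromosome 3, 1 on chromosome 11 (Hist3h2a) and 1 on chromosome 6 (Hist4h4). The annotation holds 70 symbols of this form, and the other 26 were not analysed here.

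The cells were of a C57BL/6J x 129 background and grew in medium with serum, LIF and the inhibitors PD0325901 and CHIR99021, which block MEK and GSK3. Every group carried Kmt2cKO, so none had intact KMT2C. The series asks how KMT2C and KMT2D, histone methyltransferases that act at enhancers, shape activation by GRHL2, an epithelial transcription factor. GRHL2-ERT joins GRHL2 to part of the estrogen receptor, through which tamoxifen (Tam) sends it into the nucleus. Ethanol (EtOH) served as the control treatment. The Kmt2c-KO line (labelled Kmt2cKO; Kmtd fl/fl, with the d allele so spelled) carried GRHL2-ERT and received EtOH or Tam for 8 h or 16 h. The double-KO line (Kmt2cKO; Kmt2dKO) carried GRHL2-ERT and received the same agents for the same times. A Kmt2c-KO line with the same alleles but no GRHL2-ERT received Tam for 8 h or 16 h. Each of these 10 groups had 3 libraries. The labels say that clones were selected for comparable GRHL2 levels, so a difference between the lines is a difference between selected clones. They do not say whether the libraries of a group came from separate cultures, so every p below measures only the spread between libraries.

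Replication-dependent histone genes are transcribed mostly in S phase, when new DNA must be packaged. Their transcripts normally end in a conserved stem-loop, bound by SLBP, in place of a poly(A) tail. A kit that primes with oligo-dT, as the one used here does, therefore reads only those histone transcripts that carry a poly(A) tail or a run of A to which the primer can anneal. The levels below are tags read from such priming, in CPM, a gene's tags as a share of its library's total, and not the full histone mRNA pool. They were not divided by length, since the kit reads a tag near the 3' end.

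The stem-loop and the bases before it are shown for members that the results turn on, because oligo-dT primes on runs of A and the members differ in how many A stand there. The sequences are from GENCODE release M21 on GRCm38 (mm10), written 5′ to 3′ on the transcript strand, with the stem-loop in capitals, and each lies within its gene's annotated transcript. The windows are chr13:21833029-21833058 (minus strand) for Hist1h2ap, chr13:21810884-21810913 (plus strand) for Hist1h2ao, chr13:23751558-23751587 (plus strand) for Hist1h2ab, chr13:23570668-23570697 (minus strand) for Hist1h2ae, chr13:23621782-23621811 (minus strand) for Hist1h1e, chr13:22036286-22036315 (plus strand) for Hist1h2bk, chr13:23745047-23745076 (minus strand) for Hist1h3c and chr13:23581936-23581965 (plus strand) for Hist1h4d.
Hist1h2ap: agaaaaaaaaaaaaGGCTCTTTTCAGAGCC
Hist1h2ao: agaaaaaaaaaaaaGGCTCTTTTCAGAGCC
Hist1h2ab: ttaaccaaaacaaaGGCTCTTTTCAGAGCC
Hist1h2ae: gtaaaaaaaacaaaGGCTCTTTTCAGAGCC
Hist1h1e: cccaacaacccaaaGGCTCTTTTCAGAGCC
Hist1h2bk: cgtctagcaccaaaGGCTCTTTTAAGAGCC
Hist1h3c: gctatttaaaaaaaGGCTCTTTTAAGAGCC
Hist1h4d: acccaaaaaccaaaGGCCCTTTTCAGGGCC

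The stem-loop was searched as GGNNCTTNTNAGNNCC on the transcript strand only. It was present in the annotated transcript of 30 of the 44 histone genes, against 90 of 21810 other coding genes (0.413%, in any coding transcript). In the other 14 these letters are not in the annotated transcript. Among 29 windows of 30 bases there were 7 distinct stem-loops, and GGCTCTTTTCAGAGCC was the form in 16 of them. Of the 12 bases before the stem-loop a median of 7 were A. Hist1h2ao and Hist1h2ap had 12 of 12 and were the members with such a run, which 9.30% of other coding genes hold somewhere in a coding transcript. Hist1h2ae had 11, at 16.1 CPM on average, and Hist1h2ab had 9. Hist1h2ad also had 9, at 0.977 CPM, and Hist1h1e had 7, at 89.0 CPM. The transcript annotated for Hist1h1e ran on for 1153 bases after its stem-loop, that of Hist1h1c for 840 bases and that of Hist1h4d for 770 bases. These genes thus also have an annotated end far downstream of it. Transcripts of low genes ran on further: Hist1h1d for 4884 bases (2.61 CPM on average), Hist4h4 for 2445 (1.03 CPM), Hist1h2be for 1861 (1.11 CPM) and Hist3h2a for 1643 (1.06 CPM). One of the common poly(A) signals (AATAAA or ATTAAA) lay in the last 50 bases of 8 histone transcripts. That of Hist1h1c was among them, and those of Hist1h1e and Hist1h4d were not. The part of these ends in the levels was not tested.

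**Figure D1:**
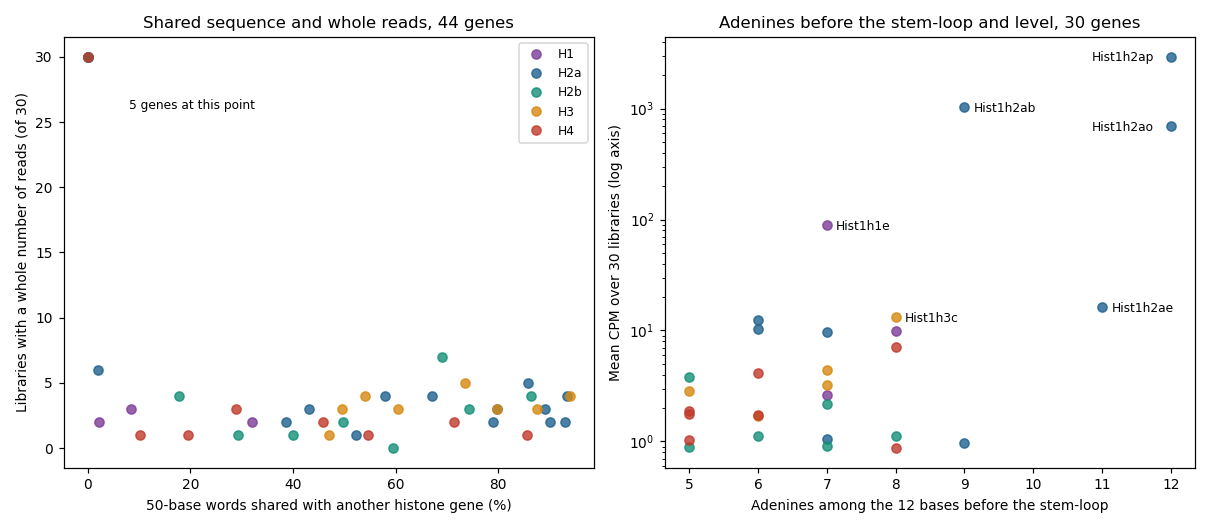
Left, for each of the 44 histone genes, the number of the 30 libraries with a whole number of reads against the percentage of its 50-base words found in another histone gene. Right, for the 30 genes with a stem-loop, the mean CPM over 30 libraries (log axis) against the number of A in the 12 bases before it. Points are coloured by type. The 5 genes with no shared word are whole in all 30 libraries, and Hist1h2ap, Hist1h2ao and Hist1h2ab are the highest on the right, although another H2A gene with 9 A is near 1 CPM.

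A trio of H2A genes held nearly all the histone tags. Hist1h2ap averaged 2925 CPM over the 30 libraries (lowest 564, highest 11148), Hist1h2ab averaged 1029 CPM (674 to 1859) and Hist1h2ao averaged 695 CPM (20.4 to 2055). Together they made up 89.7% to 94.5% of the histone CPM of a library, with a median of 93.0%. These genes encode near-identical core histones of the H2A class. Hist1h1e, a linker histone gene, followed with 89.0 CPM (38.3 to 213), and Hist1h2af with 77.1 CPM (18.3 to 260). The linker histone gene Hist1h1b averaged 25.0 CPM and Hist1h1a 21.5 CPM. Outside H1 and H2A the levels were lower. Hist1h3c (13.1 CPM) and Hist1h3a (4.43 CPM) led H3, Hist1h2bc (9.43 CPM) and Hist1h2bk (3.82 CPM) led H2B, and Hist1h4d (7.12 CPM) and Hist1h4b (4.11 CPM) led H4. In all, 11 members averaged at least 10 CPM and 28 averaged under 5 CPM. The lowest, Hist1h4k at 0.629 CPM, was the member left out of the tests for its low level.

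Depth over the table's genes, recovered from the spacing of the values, ran from 8.86 to 22.1 M reads (median 16.2 M). A floor of 3 reads came to between 0.136 and 0.339 CPM and covers counting error only, as molecular identifiers are not mentioned. All 12 naive stem cell markers listed were in the table, with a summed level of 5285 to 11978 CPM. Some of them moved. In double-KO against Kmt2c-KO GRHL2-ERT cells with EtOH 3 were called higher and 5 lower at 8 h. Those shares, 25% and 41.7%, stood beside 37.6% and 11.9% of all genes. At 16 h 2 were higher and 5 lower (16.7% and 41.7%), beside 40.0% and 9.96%. From 8 h to 16 h 3 fell (25%) and 1 or 2 rose in each line, beside 12.5% to 27.5% lower. With Tam in Kmt2c-KO GRHL2-ERT cells at 8 h 4 fell (33.3%), beside 2.04%. Their part in the histone differences was not tested. Markers of feeder fibroblasts (4 of 8 in the table), primitive endoderm (5 of 7) and two-cell-like cells (3 of 9) were low but moved with line or time, and their values stand beside the histone differences below. The 3 double-KO Tam libraries at 8 h resembled each other least, with mean correlations to their group of 0.965, 0.938 and 0.952 for replicates 1, 2 and 3, against at least 0.979 elsewhere.

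Most histone values were split reads. A value was called whole when it came within 0.05 of a whole number of reads. Between 11.4% and 34.9% of the histone values in a library were whole, against 96.7% to 97.7% of the values of other genes. The members whole in all 30 libraries were Hist1h1a, Hist1h1b, Hist2h2bb, Hist2h2be and Hist4h4. The same 5 were the members that share no 50-base stretch, the read length, with another annotated histone gene. The other 39 were whole in at most 7 libraries each, and 23 members shared more than 50% of their 50-base stretches with other histone genes. For these 39 the value depends on how the authors' counting divided shared reads, and each is uncertain as the level of a single gene. Sums are firmer where they come out whole. The 5 H1 genes summed to whole reads in 30 of 30 libraries, and so did Hist1h1c, Hist1h1d and Hist1h1e together.

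The pair Hist1h2ao and Hist1h2ap shows the splitting at its widest. Their annotated transcripts, 480 and 482 bases long, share an identical stretch of 452 bases. At 8 h Hist1h2ao took 0.182% to 26.3% of the pair's CPM (median 6.25%, 15 libraries), and at 16 h it took 13.5% to 78.5% (median 39.8%, 15 libraries). The lowest share was in the double-KO Tam library of replicate 2 at 8 h, and the highest in the Tam library of replicate 1 at 16 h of the line without GRHL2-ERT. In the latter group Hist1h2ao read 2055, 709 and 348 CPM and Hist1h2ap 564, 1825 and 2051 CPM, so the order of the genes reversed between libraries of the same group. The sum was steadier, at 3234 to 11168 CPM at 8 h and 1965 to 2862 CPM at 16 h, with no overlap between the times. How many of all genes lacked such an overlap was not computed. Even the sum was whole in only 7 of 30 libraries, since other H2A genes share its reads. Hist1h2ao, named for its place in this pair after its values were seen, passed no test.

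**Figure D2:**
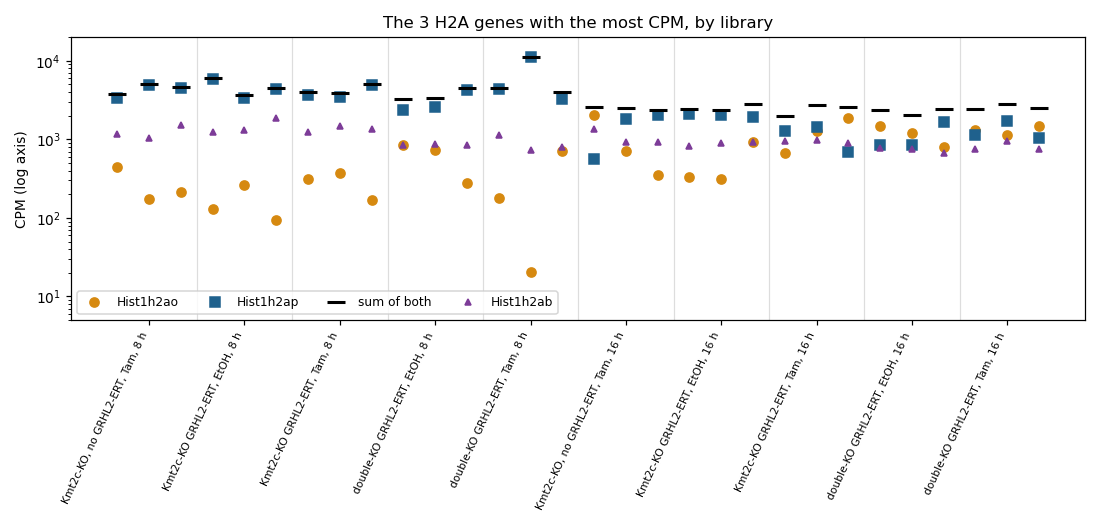
CPM of Hist1h2ao, Hist1h2ap, their sum and Hist1h2ab in each of the 30 libraries (log axis), grouped by line, treatment and time. The sum lies at 1965 to 2862 CPM at 16 h and at 3234 CPM or more at 8 h, while the division between Hist1h2ao and Hist1h2ap varies between libraries of the same group.

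Histone tags were lower at 16 h than at 8 h in every line. The summed histone level was 7657, 5353 and 6803 CPM at 8 h and 3517, 3499 and 4085 CPM at 16 h in Kmt2c-KO GRHL2-ERT cells with EtOH. It was 4566, 4584 and 5840 CPM at 8 h and 3424, 3055 and 3439 CPM at 16 h in double-KO cells with EtOH. In Kmt2c-KO cells without GRHL2-ERT, on Tam, it was 5412, 6523 and 6712 CPM at 8 h and 4212, 3715 and 3542 CPM at 16 h. Neither these groups nor the 15 libraries of each time overlapped (4566 to 12747 CPM against 3055 to 4212 CPM). How many of all genes lacked an overlap, between times or between lines, was not computed here or below. The 8 h mean was 1.78, 1.51 and 1.63 times the 16 h mean in these lines, in the order given. The remaining members had lower sums too. Without Hist1h2ab, Hist1h2ao and Hist1h2ap the rest summed to 340 to 849 CPM at 8 h and 180 to 331 CPM at 16 h, and the ratios were 1.53, 1.57 and 1.90. For the 5 members that share no 50-base stretch they were 1.42, 1.69 and 2.22. That sum is mostly Hist1h1a and Hist1h1b, and not all of the 5 were lower: over 15 libraries the median of Hist2h2be was 0.915 CPM at 8 h and 1.22 CPM at 16 h, and that of Hist4h4 was 0.892 and 1.06 CPM. In bulk RNA, fewer cells in S phase and less histone RNA per cell cannot be told apart, and neither can the hours of treatment and anything else that differed between the sets of libraries of each time.

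**Figure D3:**
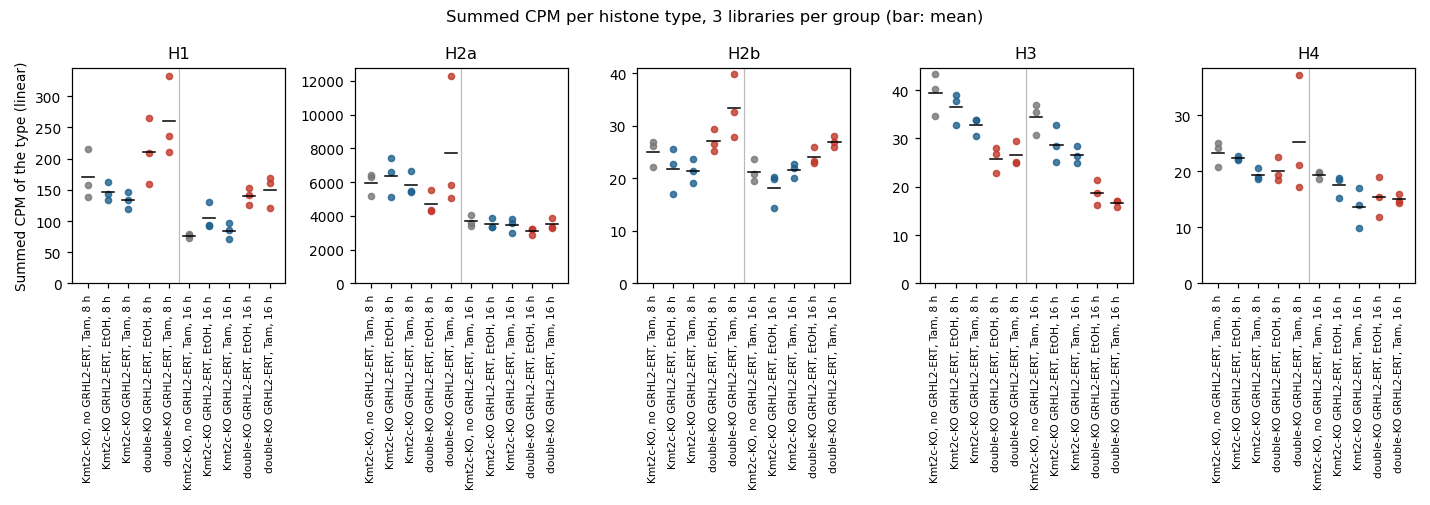
Summed CPM of the H1, H2A, H2B, H3 and H4 genes (linear axes from 0, on a different scale for each type) in the 3 libraries of each group, with a bar at the mean, the 8 h groups left of the line and the 16 h groups right of it. H2A spans 2872 to 12312 CPM and its means are lower at 16 h in every group. H1 is highest and H3 lowest in double-KO cells at each time.

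By type, the H1 sums did not overlap between the times in any of the 3 lines. The H1 sum was 146 ± 14.6 CPM at 8 h and 105 ± 21.8 CPM at 16 h in Kmt2c-KO GRHL2-ERT cells with EtOH (SD, n = 3 libraries here and below). In double-KO cells with EtOH it was 211 ± 53.0 and 140 ± 13.7 CPM, and in the line without GRHL2-ERT 171 ± 40.4 and 76.5 ± 3.95 CPM. These linker histones bind the DNA between nucleosomes. H4 sums did not overlap in the Kmt2c-KO lines (22.4 ± 0.392 against 17.5 ± 1.98 CPM with GRHL2-ERT and 23.3 ± 2.27 against 19.4 ± 0.720 CPM without) and overlapped in double-KO cells (20.1 ± 2.20 against 15.4 ± 3.58 CPM). H3 sums overlapped in both Kmt2c-KO lines and not in double-KO cells (25.8 ± 2.68 against 18.8 ± 2.61 CPM). H2B sums overlapped in all 3 lines, at 21.8 ± 4.35 against 18.2 ± 3.30 CPM, 27.0 ± 2.06 against 24.0 ± 1.65 CPM and 25.1 ± 2.58 against 21.3 ± 2.15 CPM, in the order above.

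The shares of histone genes that fell stood near those of all genes. In limma at an adjusted p under 0.05, with 43 members tested, 8 fell and 1 rose in Kmt2c-KO GRHL2-ERT cells with EtOH, where 27.5% of all genes fell and 17.5% rose. That was 18.6% of the members lower and 2.33% higher. In double-KO cells 4 fell (9.30%) and 0 rose, beside 12.5% and 8.72% of all genes, with 12 members at an unadjusted p under 0.05. In the line without GRHL2-ERT 13 fell (30.2%) and 0 rose, beside 25.7% and 10.9%. The median member differed by -0.38, -0.33 and -0.35 on the log2(CPM + 1) scale in these lines, and the median of all genes by -0.12, -0.06 and -0.15. Of the 43 members 33, 31 and 30 lay below 0. These 3 comparisons share no libraries. The counts rested on few libraries. Among Kmt2c-KO GRHL2-ERT libraries the count of 9 became 4 without replicate 3 at 8 h and 5 without replicate 2 at 16 h. In double-KO cells the count of 4 became 1 without replicate 2 at 16 h and 2 without replicate 1 at 16 h, replicate 1 at 8 h or replicate 3 at 8 h. In the line without GRHL2-ERT 13 became 8 without replicate 3 at 8 h. The shares of all genes called in these reduced fits are not given here.

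A trio of members were called lower in all 3 lines, and 18 were called lower in at least 1. Beside them, 27.5%, 12.5% and 25.7% of all genes fell in the lines taken singly. The shares of all genes lower in all 3 lines, or in at least 1, were not computed. Hist1h1b, whose reads are its own, fell in each. With EtOH it read 35.1, 25.9 and 30.2 CPM at 8 h and 14.1, 16.8 and 22.9 CPM at 16 h in Kmt2c-KO GRHL2-ERT cells, and 43.1, 29.7 and 49.7 CPM against 19.5, 16.1 and 18.7 CPM in double-KO cells. In the line without GRHL2-ERT it read 23.8, 35.1 and 36.2 CPM against 6.74, 10.6 and 11.96 CPM. In none of the lines did the times overlap, and the share of all genes of which this holds was not computed. The log2 fold changes in limma were -0.74 ± 0.22 (SE, adjusted p 0.00703), -1.10 ± 0.22 (adjusted p 0.000897) and -1.61 ± 0.22 (adjusted p 3e-06). The first had an adjusted p of 0.0529 without replicate 1 at 16 h.

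Hist1h2af and Hist1h2ap, genes of the core histone H2A, also fell in each line and did not overlap between the times over all 15 and 15 libraries. The share of all genes without such an overlap was not computed. Hist1h2af read 61.3 to 260 CPM at 8 h (median 113) and 18.3 to 57.0 CPM at 16 h (median 41.5). Its log2 fold changes in limma were -1.18 ± 0.41, -1.39 ± 0.41 and -1.41 ± 0.41 (adjusted p 0.0242, 0.0203 and 0.0112). Hist1h2ap read 5852, 3414 and 4429 CPM at 8 h against 2120, 2023 and 1933 CPM at 16 h in Kmt2c-KO GRHL2-ERT cells with EtOH. In double-KO cells it read 2384, 2615 and 4237 CPM against 859, 850 and 1669 CPM. The log2 fold changes of Hist1h2ap were -1.14 ± 0.45, -1.48 ± 0.45 and -1.71 ± 0.45 (limma, adjusted p 0.0468, 0.0252 and 0.00606). Both genes share reads with others, and their calls hung on single libraries. In Kmt2c-KO GRHL2-ERT cells Hist1h2ap was not called without replicate 1 or 3 at 8 h or any of the 3 replicates at 16 h (adjusted p 0.0817 to 0.156) or under median-of-ratios scaling (0.0880), nor Hist1h2af without replicate 1 or 3 at either time (adjusted p 0.0615 to 0.0825). In double-KO cells Hist1h2ap was lost without replicate 3 at 8 h (0.121) or replicate 1 or 2 at 16 h (0.0916 and 0.0947), and Hist1h2af without replicate 1 at 8 h (0.0872) or replicate 2 or 3 at 16 h (0.117 and 0.0559) or with the libraries of that contrast alone (0.0681). In the line without GRHL2-ERT Hist1h2ap was lost without replicate 1 at 16 h (0.0502) and with its contrast alone (0.0841), and Hist1h2af without replicate 3 at 16 h (0.0698).

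Other members passed in 1 or 2 of the lines. Hist1h1e fell in the line without GRHL2-ERT, from 78.3, 85.4 and 122 CPM to 38.3, 42.0 and 41.2 CPM (limma log2 fold change -1.19 ± 0.20, adjusted p 4.7e-05). Its 8 h and 16 h libraries were far apart, and no alternative ended the call. Hist1h4c, an H4 gene, fell in both Kmt2c-KO lines, by -0.98 ± 0.39 with GRHL2-ERT (limma adjusted p 0.0393) and by -1.30 ± 0.39 without (0.00987), from levels of at most 6.14 CPM in either line. The first call was lost without replicate 1 or 3 at 8 h (0.0844 and 0.109) or replicate 2 at 16 h (0.257) and at a pseudocount of 5 (0.0603), and the second without replicate 3 at 8 h (0.0653) and at a pseudocount of 0.1 (0.0847). Hist1h1d, a linker histone gene, fell in double-KO cells by -0.91 ± 0.32 (limma adjusted p 0.0417), lost without any 1 of the 6 libraries (0.0565 to 0.141), at a pseudocount of 0.1 (0.0564) and under median-of-ratios scaling (0.0747). Hist1h2bp, an H2B gene, fell by -1.07 ± 0.37 in Kmt2c-KO GRHL2-ERT cells (limma adjusted p 0.0219), lost without replicate 2 at 8 h (0.152) or replicate 1 at 16 h (0.143). The H2B gene Hist1h2bb was the member that rose, in Kmt2c-KO GRHL2-ERT cells with EtOH, from 0.612, 0.757 and 0.362 CPM to 1.69, 2.61 and 1.30 CPM. The groups did not overlap, at a level of few reads (limma log2 fold change 0.84 ± 0.26, adjusted p 0.0102, and 0.0700 without replicate 2 at 16 h). The leading genes of H2B, H3 and H4 were not called between times: Hist1h3c, Hist1h3a, Hist1h2bc, Hist1h2bk, Hist1h4d and Hist1h4b.

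**Figure D4:**
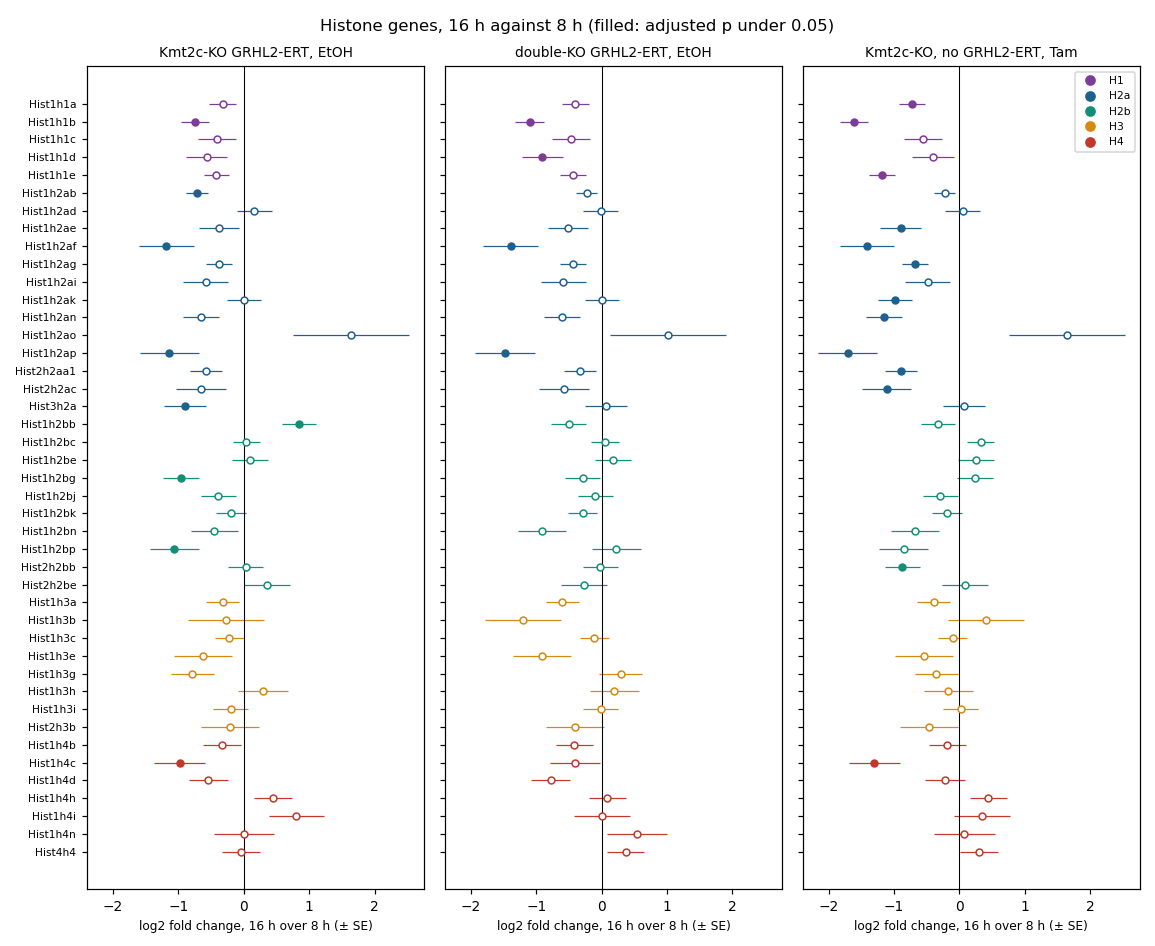
Log2 fold change from 8 h to 16 h (bars: SE of the model) of each of the 43 tested histone genes in the 3 lines, coloured by type, with filled points for an adjusted p under 0.05. Of the 43 points 33, 31 and 30 lie below 0, and the filled points are 9, 4 and 13.

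Rn45s, the ribosomal RNA precursor, which like histone mRNA is made without a poly(A) tail, also fell between the times. It fell from 56038 to 23407 CPM in Kmt2c-KO GRHL2-ERT cells with EtOH (limma log2 fold change -1.22 ± 0.21, adjusted p 5.98e-05) and from 40376 to 21544 CPM in double-KO cells (-0.90 ± 0.21, adjusted p 0.00361). In the line without GRHL2-ERT it fell from 35139 to 23324 CPM (-0.60 ± 0.21, limma adjusted p 0.0263), a call lost under median-of-ratios scaling (0.162). That call was also lost without replicate 2 or 3 at 8 h (0.0830 and 0.0630) or replicate 3 at 16 h (0.110). Rn45s and the histone sum did not keep a fixed ratio. The ratio was 7.05, 7.50 and 10.9 at 8 h and 6.55, 6.04 and 6.38 at 16 h in Kmt2c-KO GRHL2-ERT cells with EtOH, and 7.49, 8.46 and 8.25 against 6.19, 6.06 and 7.25 in double-KO cells, with no overlap in either. Without GRHL2-ERT it was 5.98, 5.74 and 5.31 against 6.12, 6.50 and 5.66, with an overlap. Rmrp and Rpph1, RNAs that are also made without a tail, were not called in any of these lines (limma log2 fold changes of -0.50, 0.20 and -0.16 for Rmrp, adjusted p 0.116, 0.624 and 0.655, and of -0.31, 0.03 and -0.34 for Rpph1, adjusted p 0.533, 0.969 and 0.517). Both were low: over 15 libraries the median of Rmrp was 0.930 CPM at 8 h and 0.697 CPM at 16 h, and that of Rpph1 2.85 and 2.04 CPM. At such levels the lack of a call says little. Of 13 RNAs listed as made without a tail, 3 could be tested. With Tam in Kmt2c-KO GRHL2-ERT cells at 8 h Rn45s fell as well (-0.73 ± 0.21, limma adjusted p 0.0392), where 0 histone genes were called. The part that tags from RNA without a tail have in the histone differences was not tested.

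Markers of two-cell-like cells rose between the times in the Kmt2c-KO lines, opposite to the histone sums. The 3 in the table (Zscan4c, Zscan4d and Tcstv1) summed to 0.243 to 1.53 CPM at 8 h and 6.70 to 7.31 CPM at 16 h with GRHL2-ERT and EtOH, where 2 rose. Without GRHL2-ERT they summed to 0.533 to 1.00 CPM and 19.7 to 22.6 CPM, and all 3 rose. In double-KO cells, at 13.4 to 17.6 CPM and 11.2 to 16.4 CPM, 0 were called, while the summed histone level was lower at 16 h there too. Primitive endoderm markers, without Sox7 and Sox17, which are not among the table's genes, summed to 2.51 to 5.35 CPM and 1.33 to 2.86 CPM with GRHL2-ERT and EtOH, and to 3.82 to 5.52 CPM and 1.36 to 2.19 CPM without GRHL2-ERT, with 1 called lower in each. Their part in the histone differences was not tested.

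The genes that make, process and load histones did not move as a block between the times. Their counts are to be read against the 17.5%, 8.72% and 10.9% of all genes that rose and the 27.5%, 12.5% and 25.7% that fell in these lines. Of 22 genes of histone transcription and 3' processing, 4 rose and 8 fell in Kmt2c-KO GRHL2-ERT cells with EtOH, 2 rose and 6 fell in double-KO cells, and 2 rose and 10 fell in the line without GRHL2-ERT, or 36.4%, 27.3% and 45.5% lower. Slbp, whose protein binds the stem-loop, rose in each, from 60.0 to 132 CPM, from 94.9 to 156 CPM and from 70.8 to 128 CPM (limma log2 fold changes 1.16 ± 0.24, 0.73 ± 0.24 and 0.85 ± 0.24, adjusted p 0.000367, 0.0289 and 0.00716). The double-KO call of Slbp was lost without replicate 3 at 8 h (limma adjusted p 0.167) or any single replicate at 16 h (0.0568 to 0.0787). Npat, the coactivator of histone gene transcription, was not called (-0.19, 0.05 and -0.13). Upf1, a helicase that acts in histone mRNA decay, fell by -1.37, -0.85 and -1.44. Of 19 histone chaperone genes 4 rose and 9 fell, 1 rose and 6 fell, and 1 rose and 10 fell, or 47.4%, 31.6% and 52.6% lower. Chaf1a, a subunit of the CAF-1 complex that deposits histones behind the replication fork, fell by -1.09, -0.78 and -0.90. Of 11 genes listed as replication-independent histone variants 6 rose and 3 fell, 2 rose and 1 fell, and 5 rose and 3 fell, or 54.5%, 18.2% and 45.5% higher. H2afz, which encodes H2A.Z, rose from 1946 to 4526 CPM, from 2102 to 3239 CPM and from 2180 to 3950 CPM. Of 37 genes of DNA replication and S phase 15 rose and 8 fell, 6 rose and 9 fell, and 11 rose and 9 fell, or 40.5%, 16.2% and 29.7% higher. Among them Pold1, the catalytic subunit of DNA polymerase delta, fell by -1.50, -0.93 and -1.04. Others of this list went the other way: Gins1 rose by 1.25 in Kmt2c-KO GRHL2-ERT cells with EtOH, and Orc6 by 1.10 in double-KO cells. Of 20 genes of G2 and mitosis 12 rose and 3 fell, 4 rose and 2 fell, and 5 rose and 4 fell, or 60%, 20% and 25% higher. No test set these lists against other genes.

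Between the lines, double-KO against Kmt2c-KO GRHL2-ERT cells with EtOH, the summed levels of H1 and H3 differed in opposite directions. The H1 sum had a higher mean in double-KO cells at 8 h, at 209, 159 and 265 CPM against 162, 143 and 133 CPM, where the groups overlapped. At 16 h it was 142, 125 and 153 CPM against 92.4, 93.4 and 131 CPM, again with an overlap. The means stood at ratios of 1.44 and 1.33. With Tam the groups did not overlap, at ratios of 1.95 (8 h) and 1.77 (16 h). Most of this came from Hist1h1e, with means of 134 against 74.3 CPM at 8 h and 97.0 against 56.4 CPM at 16 h with EtOH. Of the 5 H1 genes 3 and 2 lay above 0, with median log2 fold changes of 0.03 and -0.09. H3 went the other way. It summed to 27.9, 26.7 and 22.8 CPM in double-KO cells and 38.9, 32.7 and 37.8 CPM in Kmt2c-KO cells at 8 h with EtOH, and to 21.4, 18.8 and 16.2 CPM against 28.3, 32.7 and 25.1 CPM at 16 h. These groups did not overlap at either time, nor did they with Tam, and Kmt2c-KO cells stood higher by ratios of 1.41 and 1.53 with EtOH and 1.23 and 1.60 with Tam. Much of this came from Hist1h3c, the H3 gene called at both times with EtOH, whose levels are given below. Of the 8 H3 genes 6 lay below 0 at each time, with median log2 fold changes of -0.25 and -0.31. Whether the H3 sum comes out in whole reads was not checked.

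Few histone genes were called between the lines. At 8 h 3 of 43 rose in double-KO cells (6.98%) and 5 fell (11.6%), beside 37.6% of all genes higher and 11.9% lower in limma at an adjusted p under 0.05. At 16 h 3 rose (6.98%) and 3 fell (6.98%), beside 40.0% and 9.96%. The median member differed by -0.05 and -0.20, and the median gene by 0.31 and 0.35. The excess of higher calls over all genes depends on the scaling. Median-of-ratios scaling moved the median gene to 0.03 and 0.02 and turned the split of higher and lower genes from 4664 and 1472 to 2590 and 2645 at 8 h, and from 4967 and 1236 to 2573 and 2575 at 16 h. It left 1 histone gene higher and 8 lower at 8 h, and 0 higher and 6 lower at 16 h, with member medians of -0.30 and -0.44. The same scaling turned the split between times from 2177 higher and 3410 lower to 2851 and 2697 in Kmt2c-KO GRHL2-ERT cells, from 1083 and 1556 to 1412 and 1021 in double-KO cells, and from 1352 and 3189 to 2164 and 2010 in the line without GRHL2-ERT, with 1 member higher and 7 lower, 0 and 3, and 0 and 11.

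Hist1h3c, an H3 gene, was lower in double-KO cells at both times and under both scalings. With EtOH it read 8.03, 11.9 and 6.35 CPM in double-KO and 17.4, 16.1 and 18.7 CPM in Kmt2c-KO cells at 8 h (limma log2 fold change -0.96 ± 0.22, adjusted p 0.000742). At 16 h it read 6.72, 9.11 and 7.71 CPM against 14.7, 15.7 and 14.0 CPM (-0.84 ± 0.22, adjusted p 0.0022). The groups did not overlap at either time. Over all treatments and times the 12 double-KO libraries read 5.72 to 12.5 CPM (median 7.68) and the 18 libraries of both Kmt2c-KO lines 12.4 to 24.8 CPM (median 15.4), so the ranges overlapped only between 12.4 and 12.5 CPM. With median-of-ratios scaling the differences were -1.24 (adjusted p 2.2e-05) and -1.18 (3.9e-05).

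Hist1h1e, Hist1h2bc and Hist2h2be were higher in double-KO cells at both times. Hist1h1e read 132, 98.7 and 173 CPM against 79.3, 77.1 and 66.5 CPM at 8 h with EtOH (limma log2 fold change 0.81 ± 0.20, adjusted p 0.00128), and 97.1, 87.6 and 106 CPM against 49.7, 46.2 and 73.2 CPM at 16 h (0.80 ± 0.20, adjusted p 0.00141). Hist1h2bc read 10.9, 11.6 and 11.4 CPM against 4.39, 6.45 and 9.47 CPM at 8 h (0.72 ± 0.21, limma adjusted p 0.00606), and 12.5, 11.7 and 11.1 CPM against 5.16, 7.51 and 7.69 CPM at 16 h (0.73 ± 0.21, adjusted p 0.00521). Neither gene's groups overlapped at either time. Both calls were lost at both times under median-of-ratios scaling, at adjusted p 0.0526 and 0.0953 for Hist1h1e and 0.115 and 0.154 for Hist1h2bc, and the 8 h call of Hist1h2bc was lost without Kmt2c-KO replicate 1 (0.0732). Hist2h2be, an H2B gene whose reads are its own, read 2.50, 3.90 and 3.14 CPM against 0.238, 0.551 and 0.568 CPM at 8 h, where the groups did not overlap (1.52 ± 0.35, limma adjusted p 0.000824, and 1.32 with adjusted p 0.00227 under median-of-ratios scaling). At 16 h it read 1.74, 2.89 and 2.85 CPM against 0.824, 0.556 and 1.22 CPM (0.90 ± 0.35, limma adjusted p 0.0345). That call was lost under median-of-ratios scaling (0.104), with a pseudocount of 0.1 (0.0519) and without Kmt2c-KO replicate 1 or 2 (0.0738 and 0.115) or double-KO replicate 2 or 3 (0.102 and 0.0979). Over all 12 double-KO libraries Hist2h2be read 0.452 to 5.21 CPM (median 2.95), and over the 18 Kmt2c-KO libraries 0.238 to 1.50 CPM (median 0.729).

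Among the members lower in double-KO cells at 1 time, Hist1h2ab read 860, 881 and 845 CPM against 1229, 1316 and 1859 CPM at 8 h, with no overlap (limma log2 fold change -0.74 ± 0.17, adjusted p 0.000627). At 16 h its groups did not overlap either, at 772, 763 and 674 CPM against 821, 896 and 928 CPM, and the gene was not called. In Kmt2c-KO GRHL2-ERT cells with EtOH Hist1h2ab also fell from 8 h to 16 h (-0.71 ± 0.17, limma adjusted p 0.00115). That comparison uses the same 8 h Kmt2c-KO libraries as the one between the lines, so these calls are not independent. The same holds for the calls of Hist1h2bp between times and between lines. The calls of Hist1h2bp, Hist3h2a and Hist1h1c were lost without 1 or more single libraries. At 8 h Hist1h2bp differed by -1.20 ± 0.37 (limma adjusted p 0.00949, and 0.0806 without Kmt2c-KO replicate 2 or 0.0656 without double-KO replicate 3). Hist3h2a differed by -0.92 ± 0.32 (limma adjusted p 0.0199), lost without Kmt2c-KO replicate 1 or 3 (0.113 and 0.143) or double-KO replicate 1 or 2 (0.0870 and 0.109) and with the contrast alone (0.111). At 16 h Hist1h1c, a linker histone gene, differed by -0.73 ± 0.29 (limma adjusted p 0.0390), lost without any 1 of the 6 libraries (0.0536 to 0.118) and at a pseudocount of 5 (0.0596). The H2B gene Hist1h2bb differed by -1.02 ± 0.26 (limma adjusted p 0.00195), at 0.484, 0.207 and 0.482 CPM against 1.69, 2.61 and 1.30 CPM. The latter libraries are also those of its rise from 8 h to 16 h.

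**Figure D5:**
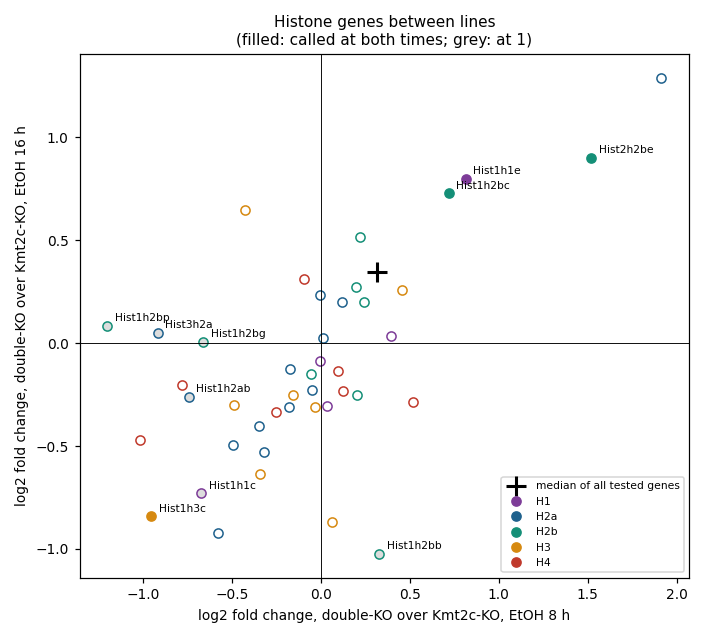
Log2 fold change of each of the 43 tested histone genes between double-KO and Kmt2c-KO GRHL2-ERT cells with EtOH, at 8 h (horizontal) and 16 h (vertical), coloured by type, with filled points for genes called at both times and grey ones for genes called at 1. The cross marks the median of all tested genes, at 0.31 and 0.35. Hist1h1e, Hist1h2bc and Hist2h2be are filled at the upper right and Hist1h3c at the lower left. The open H2A point at the far upper right, which was not called, is Hist1h2ao.

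Markers of other cell types also moved with the line. The 5 primitive endoderm markers in the table summed to 25.1 to 32.7 CPM in double-KO and 2.51 to 5.35 CPM in Kmt2c-KO GRHL2-ERT cells with EtOH at 8 h, and to 34.3 to 47.6 CPM against 1.33 to 2.86 CPM at 16 h, where 4 and 5 of 5 were called higher. Dab2, an endocytic adaptor, led them, with limma log2 fold changes of 2.88 and 3.93 (adjusted p 8.89e-11 and 9.21e-14). The 4 feeder markers in the table, without Col3a1, Dcn, Lum and Postn, summed to 5.44 to 6.71 CPM against 0.918 to 2.74 CPM and 4.89 to 6.82 CPM against 0.863 to 1.11 CPM, with 3 called higher at each time. The two-cell-like markers summed to 13.4 to 17.6 CPM against 0.243 to 1.53 CPM at 8 h and 11.2 to 16.4 CPM against 6.70 to 7.31 CPM at 16 h, with 3 and 2 called higher. Their part in the histone differences between the lines was not tested.

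Among genes that act on histone mRNA or on histones, Eri1 was higher in double-KO cells at both times. Of the 22 genes of histone transcription and 3' processing 5 were higher and 0 lower in double-KO cells at 8 h, and 6 higher and 1 lower at 16 h. The shares higher were 22.7% and 27.3%, beside 37.6% and 40.0% of all genes. Eri1, the exonuclease that trims the histone mRNA end, was at 144 against 54.8 CPM at 8 h (limma log2 fold change 1.37 ± 0.13, adjusted p 2.98e-09) and at 127 against 65.8 CPM at 16 h (0.93 ± 0.13, adjusted p 1.77e-06). Slbp was higher at 8 h (0.67 ± 0.24, limma adjusted p 0.0217), a call lost under median-of-ratios scaling (0.168). It was also lost without Kmt2c-KO replicate 1 (0.164) or double-KO replicate 1 or 2 (0.0937 and 0.0785). At 16 h the Slbp difference of 0.25 was not called. Of the 19 chaperone genes 4 were higher and 5 lower at 8 h, and 6 higher and 3 lower at 16 h, or 21.1% and 31.6% higher. Of the 11 variant genes 4 were higher and 1 lower, and 4 higher and 2 lower, or 36.4% higher at each time. H2afx, which encodes the H2A.X phosphorylated at DNA breaks, was lower by -0.48 and -0.61 (limma adjusted p 0.00322 and 0.00026). Its 8 h call was lost without double-KO replicate 3 (limma adjusted p 0.0517). Among those higher were H2afy2 (1.46), H1f0 (0.70) and H3f3b (0.55) at 8 h, and H2afy (0.995), H2afj (0.94) and H3f3b (0.58) at 16 h. Both H3f3b calls were lost under median-of-ratios scaling (limma adjusted p 0.0765 and 0.111). Of the 37 S phase genes 11 were higher and 6 lower, and 6 higher and 5 lower, or 29.7% and 16.2% higher. Of the 20 genes of G2 and mitosis 13 and then 8 were higher and 0 lower, or 65% and 40% higher.

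Tamoxifen changed no histone gene that the tests could call. In Kmt2c-KO GRHL2-ERT cells 0 of 43 members were called in limma at 8 h and 0 at 16 h, beside 4.95% and 0.298% of all genes, and 1 and 3 members had an unadjusted p under 0.05. In double-KO cells 0 were called at both times, beside 0.0967% and 0.0403% of all genes, with 6 and 2 at an unadjusted p under 0.05. The summed histone level with Tam was 5629, 5667 and 6857 CPM at 8 h in Kmt2c-KO GRHL2-ERT cells, within the EtOH range. In double-KO cells at 8 h it was 6128, 12747 and 5352 CPM with Tam, and the highest of all 30 libraries was replicate 2. That library also had the highest Rn45s level of its group, at 73650 CPM, and the lowest correlation to its group. Its depth, 8.86 M reads, was the lowest of all 30. The part of the library in these values was not tested. At 16 h the sums were 3101, 3978 and 3715 CPM with Tam in Kmt2c-KO GRHL2-ERT cells and 3512, 4095 and 3511 CPM in double-KO cells. The median member differed by -0.15 and -0.16 in the former line and by 0.24 and 0.03 in the latter. The double-KO count at 8 h rested on replicate 3 of the Tam group, without which 3 members were called, 2 higher and 1 lower. That fit still held replicate 2, and the share of all genes called in it is not given here.

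No histone gene's tamoxifen response was called different between the lines. For the difference of responses, double-KO minus Kmt2c-KO, limma called 0 of 43 members at 8 h, beside 1.43% of all genes, and 0 at 16 h, beside 0%, with 7 and 3 members at an unadjusted p under 0.05. Without replicate 3 of the double-KO Tam group at 8 h, 4 members were called at that time. The share of all genes called in that fit, which still held replicate 2, is not given here. Between the Tam-treated Kmt2c-KO lines, one carrying GRHL2-ERT and the other not, 0 members were called at 8 h and at 16 h, beside 4.07% and 0.975% of all genes, with 4 members at an unadjusted p under 0.05 at each time. The summed H3 level was 32.7 ± 1.90 CPM with and 39.4 ± 4.34 CPM without GRHL2-ERT at 8 h, and 26.6 ± 1.81 against 34.4 ± 3.24 CPM at 16 h, with no overlap at either time. The H4 sum was 19.4 ± 1.09 against 23.3 ± 2.27 CPM at 8 h and 13.7 ± 3.56 against 19.4 ± 0.720 CPM at 16 h, also without overlap. The H1, H2A and H2B sums overlapped at both times. How many of all genes lacked an overlap here was not computed, and the sums were not tested.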

How the data were processed

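RNA was sequenced as 3' tags (QuantSeq, oligo-dT primed, single-end, 50 bases) from total RNA, per the labels' protocols. The authors deposited log2 values per gene for 30 libraries, beside 16 columns of group means and differences that were not used. The deposited log2 values were log2(CPM + 0.125), from which CPM were taken back. Salmon, DESeq2 1.34.0 and mm10 appear in the submitters' processing notes, and the step of each is not given in the sources used here. All 12428 listed genes had at least 1 CPM in 6 libraries.

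A mean per group was fitted over all 30 libraries to log2(CPM + 1) in limma 3.58.1 (R 4.3.3, variance trend, robust moderation, 20 residual degrees of freedom). This took the 12414 genes that reached 1 CPM in the mean of some group. Calls used a two-sided Benjamini-Hochberg adjusted p under 0.05 over all tested genes, in each of 13 contrasts, after a test on simulated data. Sums of CPM over members were not tested. Count models planned for counts were not run, since the values are log2.

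Per contrast, the 4 called members with the largest change in each direction were named, with the 2 highest members of each type, up to 4 called genes per list, Slbp, Npat and Rn45s. Genes outside the rule are Hist1h2ao, Hist1h2ae, Hist1h1a and those named for sequence, reads or level, and were chosen after their values were seen. Members and lists were chosen with earlier results of these data known. Alternatives were pseudocounts of 0.1 and 5, no filter, the libraries of a contrast alone, a replicate block, leaving out each library, and median-of-ratios scaling.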

Additional observations from a re-analysis of the deposited data

How the results depend on the processing

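Over the 40 called histone differences, 432 of 520 alternatives were still called, 88 were not and 0 had the other sign. Over 105 called differences of list genes 1317 of 1365 were still called, 47 were not and 1 had the other sign: Tpx2 between the lines at 16 h, at -0.042 (adjusted p 0.768) under median-of-ratios scaling. Of 231 alternatives for sums 228 stayed within the spread of libraries and 3 did not. The count of called members became 14 (Kmt2c-KO GRHL2-ERT cells, 16 h against 8 h), 1 (Tam in that line at 16 h) and 1 (with against without GRHL2-ERT at 8 h) when a contrast's own libraries were fitted alone. Without the 3 double-KO Tam libraries at 8 h, an alternative chosen after seeing the data, it became 7 (double-KO cells, 16 h against 8 h) and 1 (Tam in Kmt2c-KO GRHL2-ERT cells at 8 h). Leaving out each library gave 4 to 10 and 1 to 4 called members between times in Kmt2c-KO GRHL2-ERT and double-KO cells, 8 to 13 in the line without GRHL2-ERT, 6 to 10 and 4 to 5 between the lines at 8 h and 16 h, 0 to 3 for Tam in double-KO cells at 8 h, 0 to 4 for the difference of responses at 8 h and 0 to 0 elsewhere. The shares of all genes called in these fits are not given here, so the moves cannot be read as particular to the histone genes. The causes were not tested.

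Replicate numbers did not pair the libraries: same-numbered libraries correlated at -0.577 to 0.175 over 33 pairs, with 4 over 0.1. With a replicate block the counts of called members stayed at 9, 4 and 13 between times and at 8 and 6 between the lines. With 28 members under 5 CPM and 39 on shared reads, depth and read assignment limit what single histone genes can show.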
